A study of Mus musculus with 11 samples.

Results

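Smooth muscle cells and pericytes of the mouse colonic mucosa were taken from the authors' cell table as all cells of the mesenchyme that the table does not name fibroblasts. They were 740 of 55603 cells in 11 single-cell 3' RNA libraries, and the table's broader name for them is myofibroblast. The table divides them into 3 types: 421 cells with no marker gene in their name, called the Hhip type here after its leading gene, 274 cells named for Apold1, and 45 cells whose name includes Kit, called the Kit cells here. The groups were uninjured wild-type mice of about 2 months, wild-type mice of that age given 3% dextran sulfate sodium (DSS), which injures the colonic epithelium, for 6 days, and Il10-/- mice of about 10 months, which lack interleukin 10 and develop colitis without DSS. DSS mice were dissected on 9 days counted from the start of DSS, early ones (6, 7, 9, 11 and 12) and late ones (16, 18, 19 and 23). Each group was 1 library, made from pooled colons whose outer muscle layers had been stripped by hand, so these cells are those of the mucosa and of what stayed attached to it. The day 7, 11 and 18 libraries are batch C, run on fresh cells of 3 mice each. The remaining libraries have no batch in their sample records. By the authors' table they are batch A, from cells of 8 mice each that were frozen before the run.

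Visceral smooth muscle of the gut shortens through myosin sliding on smooth muscle actin, a program switched on by serum response factor with its partner myocardin. Thin strands of such cells run up the mucosa between the crypts. Mural cells wrap the blood vessels: vascular smooth muscle cells surround arterioles and contract to set blood flow, and pericytes sit within the basement membrane of capillaries, held there by platelet-derived growth factor from the endothelium and by Notch3 signalling. Cells below the crypts also release growth factors and bone morphogenetic protein (BMP) antagonists that the epithelial stem cells need.

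The libraries differed in depth and in number of cells. Members per library numbered 120 to 246 in the fresh DSS libraries, 29 to 36 in the frozen DSS libraries, 26 in the uninjured and 20 in the Il10-/- library. Their median UMI count per cell, where each UMI is 1 captured RNA molecule, was 6335 to 6853 in the fresh and 2941 to 4428 in the frozen DSS libraries. Summed counts over the members were 86154 to 2015390 per library, 4868061 in all. No doublet caller was run and the labels do not say that doublets were removed. Of the cell barcodes, 611 occurred in more than 1 library, and 15 member cells carried such a barcode, none of them shared with another member. Levels are given as CPM, the counts of a gene scaled to the summed counts of the class, and their intervals, like those of shares, cover counting error only.

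Acta2 (smooth muscle actin, chr19:34241090-34255590 in mm10), Myh11 (smooth muscle myosin heavy chain, chr16:14194535-14291372) and Rgs5 (a regulator of G protein signalling used to mark pericytes, chr1:169655501-169695813) were chosen as markers. Acta2 over all libraries was 7397 CPM in the Hhip type and 8330 in the Apold1 type, against 172 in fibroblasts and 26.2 in blood endothelial cells. Myh11 was 2801 and 2467 CPM in these types and 9.75 in fibroblasts. Rgs5 was 4877 CPM in the Apold1 type, 297 in the Hhip type and 8.28 in fibroblasts. The label therefore held for both larger types. The Kit cells went against it for contraction: their Acta2 was 875 CPM, and the 22 genes of a list of contractile proteins summed to 9719 CPM against 40772 in the Hhip type and 38568 in the Apold1 type. They had Rgs5 at 1745 CPM and were led by Pcp4 (1662 CPM), Kit (827), Hand1 (600.2) and Cckar (477), which were at or near 0 in the other types.

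Over all members, Acta2 in the 9 DSS libraries lay between 4659 and 9721 CPM with a median of 6422, and was 11375 in the uninjured and 10817 in the Il10-/- library. Myh11 was 734 to 1524 CPM in the 6 frozen DSS libraries and 2379 to 3532 in the 3 fresh ones, which do not overlap. Rgs5 was 1825 to 3299 CPM over the DSS libraries with a median of 2164. The uninjured library at 1131 and the Il10-/- library at 1297 both lay below that range.

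The 2 larger types were separated by single genes. Hhip (chr8:79965851-80058006) encodes a membrane protein that binds hedgehog ligands and lowers their signal. It averaged 875 CPM in the Hhip type over the 4 libraries with at least 20 cells of that type. It had at least 1 UMI in 194 of 302 Hhip cells of the fresh libraries (64.2%, exact 95% interval 58.5 to 69.6) and in 0 of 193 Apold1 cells, which allows up to 1.89%, although the Apold1 cells were the deeper ones (median 7079 against 6301 UMIs). Notch3 (chr17:32120820-32166852) was the reverse, with a UMI in 166 of 193 Apold1 cells (86.0%) and 0 of 302 Hhip cells. The frozen DSS libraries had the same split, with Hhip in 61 of 89 Hhip cells and 0 of 68 Apold1 cells, and Notch3 in 57 of 68 Apold1 cells and 1 of 89 Hhip cells. Since the authors defined these types from the same counts, the differences between types describe the classes and were not tested.

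Beside Hhip, the genes that led the Hhip type by fold over the other types and fibroblasts were Rbp4, a retinol carrier, at 384 CPM, Cpxm2 at 286, the bradykinin receptor Bdkrb2 at 265, Sncaip at 172, the calcium store protein Casq2 at 158, the basement membrane protein Frem2 at 156 and the growth factor Pdgfc at 134.5 CPM (mean over the same 4 libraries). The Apold1 type was led by Bcr (1047 CPM), the GTP-binding proteins Rrad (970) and Rasd1 (930), Apold1 itself (716), Ndufa4l2 (567), Notch3 (494), Sorbs2 (460), phospholamban Pln (402), which restrains the calcium pump of the internal store, and Higd1b (178). These are means over the 3 fresh libraries, the only ones with at least 20 cells of the Apold1 type. Blood endothelial cells, with counts pooled over the 11 libraries, had Apold1 (794 CPM), Bcr (609) and Sorbs2 (171) as well. The plot of marker levels sets the 3 types beside fibroblasts and blood endothelial cells.

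**Figure D1:**
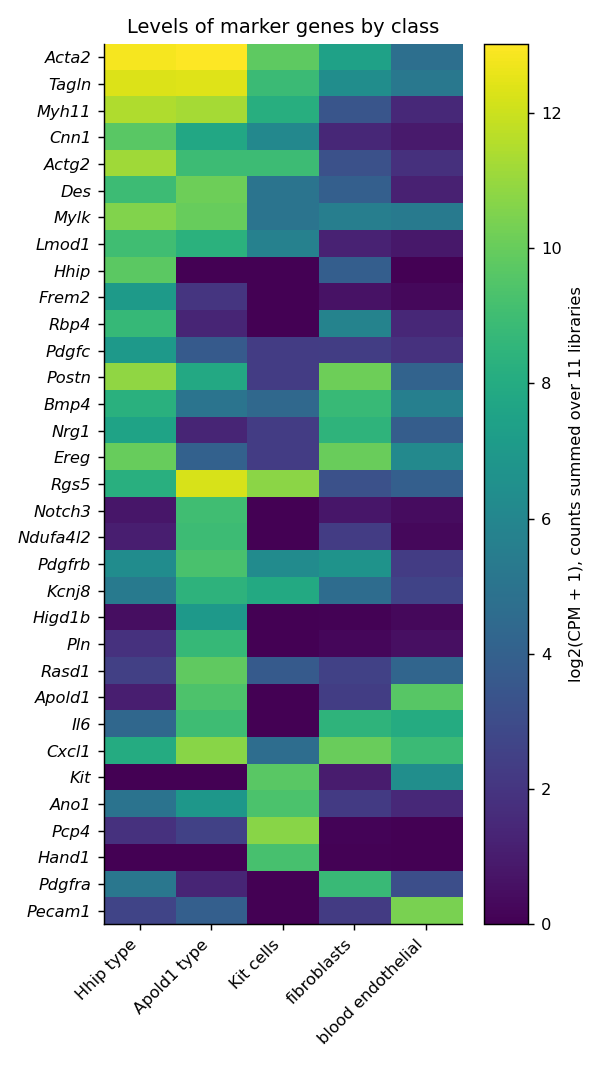
Levels of marker genes (rows) as log2(CPM + 1) of counts summed over the 11 libraries, in the Hhip type, the Apold1 type, the Kit cells, fibroblasts and blood endothelial cells (columns). Acta2 and Myh11 are high in both larger types, Hhip is at 0 outside the Hhip type among members, and Notch3 is high in the Apold1 type alone among members.

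To see which groups of genes went with each type, genes were counted that were higher in the same type in each of the 3 fresh libraries. Of 11989 genes with at least 10 counts, 17.2% were higher in the Apold1 type and 25.7% in the Hhip type in this way. Among 22 contractile genes, 7 were higher in the Hhip type (Cnn1, Actg2, Lmod1, Mylk, Csrp1, Pgm5 and Hspb6) and 2 in the Apold1 type (Cald1 and Ldb3) and the other 13 had no common direction. Cnn1 encodes calponin and Actg2 the actin of visceral muscle. On a list of visceral smooth muscle genes 6 of 13 were higher in the Hhip type and 2 in the Apold1 type, on a list of vascular smooth muscle genes 2 of 15 and 11, and on a list of pericyte genes 1 of 17 (P2ry14) and 15.

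Genes that receive signals divided between the types by ligand. Of 30 receptor and signalling genes, 17 (56.7%) were higher in the Apold1 type in each fresh library, against 17.2% of all genes. They included the receptors for noradrenaline (Adra1a and Adra2a), angiotensin (Agtr1a), endothelin (Ednrb), vasopressin (Avpr1a), ATP (P2rx1) and prostacyclin (Ptgir), and the nitric oxide receptor subunits Gucy1a1, Gucy1a2 and Gucy1b1 with the kinase Prkg1 that acts after them. The other 9 that differed (30%, against 25.7% of all genes) were higher in the Hhip type. They included the muscarinic receptor Chrm2, the tachykinin receptor Tacr2 and the prostaglandin E2 receptors Ptger3 and Ptger4. Ednrb was 429 CPM in the Apold1 type and 18.9 in the Hhip type, while the other endothelin receptor gene Ednra was nearly equal at 288 and 260. Bdkrb2 was 240.04 CPM in the Hhip type and 0.52 in the Apold1 type. Of 10 ion channel genes, 7 were higher in the Apold1 type, among them Kcnj8 and Abcc9, the subunits of the ATP-sensitive potassium channel, and 2 in the Hhip type, Kcnmb1 and Kcnma1, the parts of the large calcium-activated potassium channel.

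The platelet-derived growth factor and Notch genes were higher in the Apold1 type in 9 of 16 cases and in the Hhip type in 4. Over all genes these shares were 17.2% and 25.7%. The receptor Pdgfrb was 619 CPM in the Apold1 type and 79.6 in the Hhip type, and the Notch ligand Jag1 was 166 and 27.6. The Notch target genes Heyl, Hey1, Hey2 and Hes1 were all higher in the Apold1 type in the 3 fresh libraries, as was Mef2c, a muscle transcription factor, at 353 against 59.2 CPM. Myocd, the gene of myocardin, was higher in the Hhip type at 98.9 against 62.4 CPM, with Foxf2, a transcription factor of gut mesenchyme, Klf5 and Tead1.

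Growth factors that act on the crypt were higher in the Hhip type. Of 24 genes on a list of crypt niche factors, 20 were higher in the Hhip type in each fresh library and 0 in the Apold1 type. Over all genes these shares were 25.7% and 17.2%. Of the epidermal growth factor family ligands, Ereg was 1007 CPM against 15.5, and Nrg1 189 against 1.55. These values are from counts pooled over the 11 libraries, and the fresh DSS libraries held 2222694 of the 2664595 counts of the Hhip type. Ereg varied widely between libraries, as given further below. Bmp4 was 310 CPM against 31.5, Igf1 232 against 9.28 and Wnt5a 87.6 against 7.73. The BMP antagonists Grem1 and Chrdl1, the Wnt amplifier Rspo3 and hepatocyte growth factor Hgf had the same direction. Fibrillar matrix genes did too, in 24 of 30 cases against 1, with Postn at 1884 CPM against 229 and fibronectin Fn1 at 931 against 146. Basement membrane genes were divided, with 8 of 17 higher in the Apold1 type and 4 in the Hhip type, and Col4a1 was 1715 and 1451 CPM. Of 10 fibroblast markers, 8 were also higher in the Hhip type in each fresh library and 1 in the Apold1 type. The fibroblast marker Dpt was 556 CPM in the Hhip type, 17.5 in the Apold1 type and 1988 in fibroblasts. The part of fibroblast RNA in these differences was not tested.

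Other lists are given with the share of all genes beside them, which was 17.2% higher in the Apold1 type and 25.7% in the Hhip type. For inflammatory stromal genes these shares were 28.6% and 17.1%, and for calcium handling genes 33.3% and 33.3%. Of 18 calcium handling genes, 6 were higher in the Apold1 type in each fresh library, with the store pump Atp2a2 and its regulator Pln among them, and 6 in the Hhip type, with the store proteins Casq2 and Ryr3. Of 21 genes of transforming growth factor beta signalling, 6 were higher in the Apold1 type, with the ligands Tgfb1, Tgfb2 and Tgfb3, and 9 in the Hhip type, with the receptors Tgfbr1, Tgfbr2 and Tgfbr3. Of 35 inflammatory stromal genes, 10 were higher in the Apold1 type, among them Ccl2, Cxcl1, Il6 and Lif with the receptor parts Osmr and Il6st, and 6 in the Hhip type, among them Cxcl12, Csf1 and Ptgs2. Hypoxia and glycolysis genes were higher in the Apold1 type in 9 of 19 cases, with Epas1, Hif1a and Ldha among them, and immediate early and heat shock genes in 10 of 22. Of 10 endothelial markers 6 were higher in the Apold1 type. Pecam1, a defining endothelial marker, was 14.4 CPM there, 5.28 in the Hhip type and 1343 in blood endothelial cells. The part of endothelial RNA in these differences was not tested.

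The contractile genes were examined for the CArG box, the motif that serum response factor binds, in the 250 bases before each gene start, on both strands. RefSeq promoter windows of GRCm38.p6 were matched for 18 of the 22 contractile genes, with no window for Myh11, Tagln and Actg2 among others, and 4 of their 23 windows (17.4%) held the box, those of Myl9, Myl6 and Ldb3. It was in 482 of all 32851 windows (1.47%), in 0 of 15 windows of 11 matched pericyte genes, in 1 of 12 windows of the vascular list (Rergl) and in 1 of 10 of the visceral list (Actc1). The stretches for Myl9, a myosin light chain gene that both types express, and Rergl, a gene of the vascular list, are shown with the box in capitals. The Myl9 box starts 161 bases before the gene start, on chr2:156775214-156775413 (plus strand), and the Rergl box 49 bases before it, on chr6:139501939-139501968 (minus strand).
Myl9: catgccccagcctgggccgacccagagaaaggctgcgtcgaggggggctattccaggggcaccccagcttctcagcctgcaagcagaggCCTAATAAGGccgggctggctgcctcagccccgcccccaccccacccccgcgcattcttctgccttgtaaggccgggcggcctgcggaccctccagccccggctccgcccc
Rergl: acaaggacagCCATAAAAGGcactttcaaa

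The Apold1 type was not uniform. Its 193 cells of the fresh libraries ranged widely in Acta2, with quartiles of 0, 16.9 and 90.3 UMIs per 10000, and 65 of them lay between 5 and 50. Dividing them at the median gave 97 cells at or below it and 96 above it, with a median of 5008 and 9256 UMIs per cell. Rgs5 was 7718 CPM in the cells low in Acta2 and 3367 in those high in it, and was higher in the low cells in 3 of 3 libraries. Kcnj8 was 810 and 148 CPM, Abcc9 712 and 143, Ednrb 871 and 248, and Pdgfrb 1125 and 403, each with that direction in 3 of 3 libraries. Of the 17 genes on the pericyte list, Rgs5, Kcnj8, Abcc9, Pdgfrb and Ebf1 were higher in the low cells in 3 of 3 libraries. Heyl was higher in the high cells in 3 of 3, and the others were divided between libraries. Among these, Vtn (296 and 97.1 CPM), Cox4i2 (432 and 240) and Higd1b (206 and 99.1) were higher in the low cells in 2 of 3 libraries. Cspg4 (215 and 292 CPM) and Mcam (279 and 576) were higher in the high cells in 2 of 3. The pericyte list therefore did not move as a whole.

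The cells high in Acta2 had the contractile and arteriolar genes. Myh11 was 4190 CPM in them and 210 in the low cells, Tagln 8971 and 293, and Pln 651 and 3.44. The calponin gene Cnn1 had 0 counts in the low cells and 373 counts in the high cells (377.3 CPM). The ATP receptor P2rx1 was at 0 in the low cells and 222 CPM in the high cells, and Ramp1, a receptor partner for the dilator peptide CGRP, was 10.3 and 221. Notch3 did not follow the division, at 501 CPM in the low and 495 in the high cells, nor did Ndufa4l2 at 487 and 477. The 68 cells of the frozen DSS libraries, divided at their own median, had a like median depth on both sides (3569 and 3623 UMIs). Kcnj8 was there 239 CPM in the low and 95.2 in the high cells, Rgs5 5513 and 4313, Pln 155 and 653, and Cnn1 6.45 and 313. Whether these cells form separate classes or a range in Acta2 was not tested. The division was made after the values were seen.

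**Figure D2:**
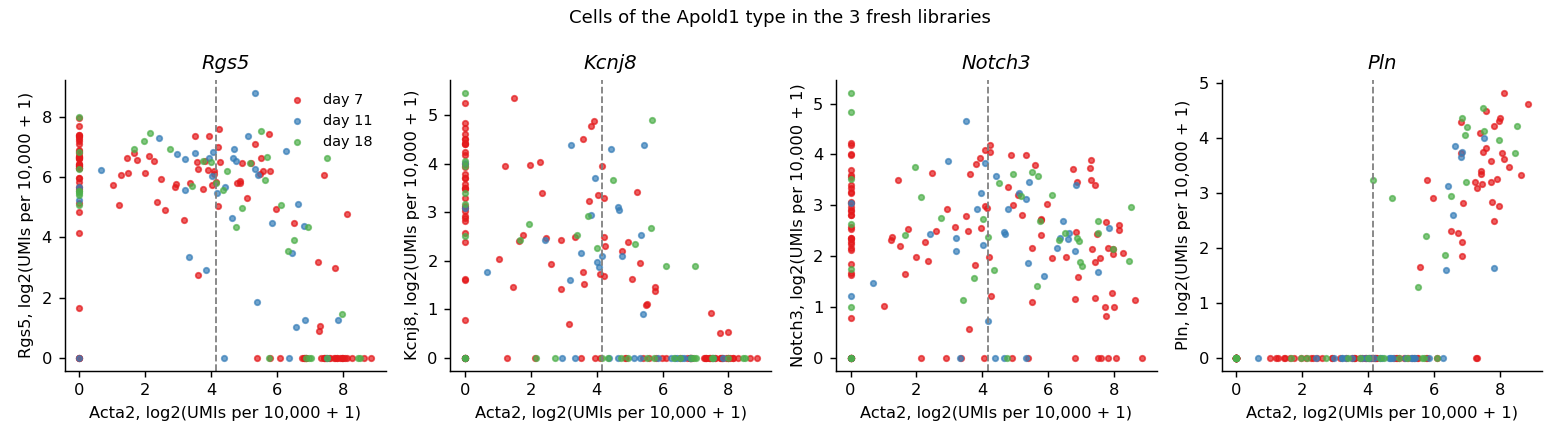
Each point is 1 of 193 Apold1-type cells of the fresh libraries, coloured by day (7, 11 or 18), with Acta2 on the horizontal axis and Rgs5, Kcnj8, Notch3 or Pln on the vertical axis, all as log2(UMIs per 10000 + 1), and the dashed line at the median of Acta2. Cells with Kcnj8 lie mostly left of the line, cells with Pln right of it, and cells with Notch3 on both sides.

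Members were 0.675% (exact 95% interval 0.459 to 0.956) to 1.22% of all cells in the frozen DSS libraries and 1.34% to 3.25% in the fresh ones, so the ranges of the batches do not overlap. Day 7 was highest at 3.25% (2.86 to 3.68). The uninjured library had 1.43% (0.935 to 2.09) and the Il10-/- library 0.343% (0.210 to 0.529). As a share of the mesenchyme, the frozen DSS libraries had 5.603% to 8.71% and the fresh ones 10.8% to 16.0%. The uninjured library at 3.24% and the Il10-/- library at 2.40% (1.47 to 3.68) were both below all 9 DSS libraries. Storage, the number of mice and the run cannot be told apart in the difference between batches.

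Over the 9 DSS libraries the share of members among all cells had a Spearman's rho of -0.15 with day (exact two-sided permutation p = 0.708) and a Pearson's r of -0.37 (p = 0.359). Over a family of 11 relations, none passed after Benjamini-Hochberg adjustment, and these became 0.982 and 0.681. Without the 2 days farthest from the median, 19 and 23, r was -0.31. Within the 6 frozen libraries rho was 0.14 (exact permutation p = 0.803), and the 3 fresh ones are too few for a value. The Hhip type had a rho of 0.03 over the 9 libraries and 0.49 within the 6 frozen ones (exact permutation p = 0.356), and the Apold1 type 0.02 and 0.43 (p = 0.419). Without day 7 these were 0.36 and 0.33, and none passed.

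The Kit cells were unevenly spread. They were 11 of 30 members on day 6, 0.446% of all cells (0.223 to 0.797), and 0.0171% to 0.152% in every other library. Genes on a list for interstitial cells of Cajal, the pacemaker cells of the gut wall, summed to 3021 CPM in them, 228 in the Hhip type and 150.1 in the Apold1 type. The chloride channel gene Ano1 was 652 CPM, the transcription factor gene Etv1 266 and the gap junction gene Gja1 1141, while 2 of the 8 listed genes had no counts. The day 6 value of a gene over all members therefore holds more of these cells than the others do.

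**Figure D3:**
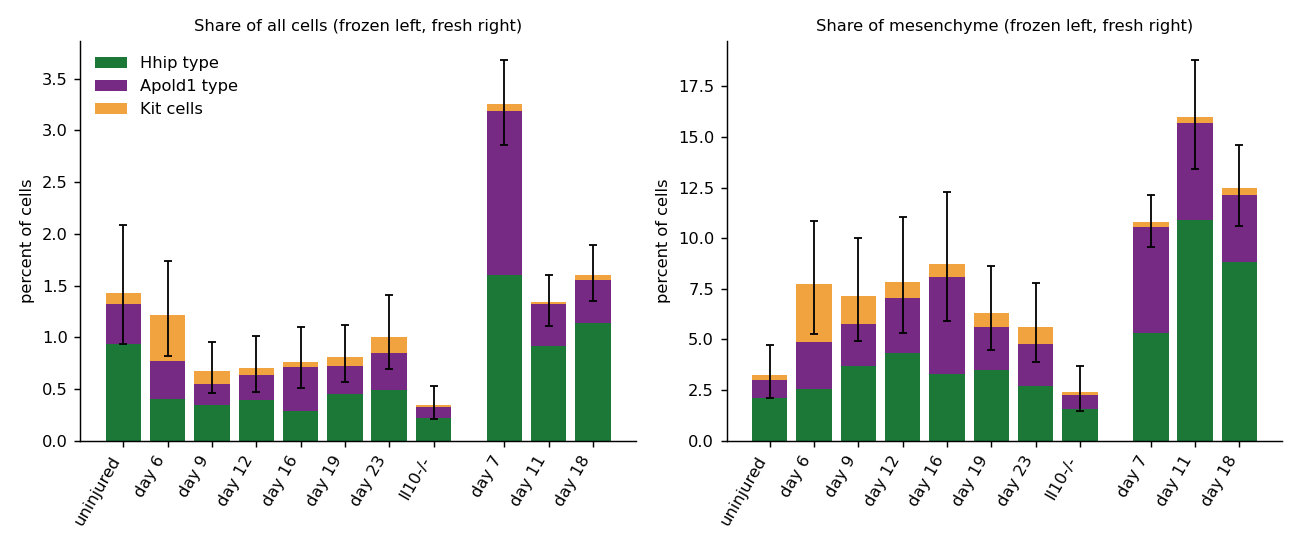
Members of each type in each library (horizontal axis; frozen libraries left, fresh libraries right) as a percentage of all cells and of mesenchyme, stacked by type, with bars for the exact 95% interval of the total. The fresh DSS libraries stand above the frozen ones in both, and day 7 is the highest share of all cells at 3.25%.

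Day trends were then fitted gene by gene over the 9 DSS libraries, on counts summed over members, with batch label as a term (edgeR's quasi-likelihood test, Benjamini-Hochberg adjustment). Of 2735 genes tested, 0 were called (0%) at an adjusted p under 0.05. At an unadjusted p under 0.05 there were 186, the smallest adjusted p was 0.0949, and DESeq2 called 25. Of these cells' markers, Acta2 had a slope of 0.36 ± 0.15 (SE) log2 units per 10 days (adjusted p = 0.643), Myh11 0.42 ± 0.16 (adjusted p = 0.509) and Rgs5 0.16 ± 0.16 (adjusted p = 0.933). Hhip had 1.26 ± 0.46 (adjusted p = 0.559), calponin Cnn1 0.85 ± 0.27 (adjusted p = 0.392) and Ereg -1.07 ± 0.52 (adjusted p = 0.752).

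By list, with no call in any, 18 of 20 tested contractile genes had a positive slope, with a median of 0.30. Of the vascular list it was 9 of 10 with a median of 0.42, of the visceral list 7 of 7 with 0.24 and of the pericyte list 5 of 12 with -0.18. Of 20 inflammatory stromal genes, 2 had a positive slope, with a median of -0.55, and of 12 basement membrane genes 2, with -0.28. The median over all genes was -0.01. In these summed counts, markers of neutrophils, for which no member is named, summed to 111 to 11312 CPM over the DSS libraries with a median of 2322, plasma cell markers to 216 to 6661 CPM, and endothelial markers to 41.5 to 247 CPM. Their part in the slopes was not tested.

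When the Kit cells were left out, a choice made after the data were seen, 17 of 2543 genes were called (0.669%) in the 8 libraries with 20 cells left, which no longer include day 6. With day 6 left out and the Kit cells kept it was 14. With a minimum of 5 cells, which keeps day 6, 6 of 2281 were called (0.263%). They were 3 neutrophil genes, Retnlg, S100a8 and S100a9, with slopes of -3.28, -2.38 and -2.23, and 3 others. Serpina3n, a protease inhibitor made in inflammation, fell by 1.34 ± 0.25 log2 units for each 10 days (edgeR, adjusted p = 0.0312), while Tppp3 rose by 1.09 ± 0.19 (adjusted p = 0.0283 by edgeR) and Lurap1l by 1.43 ± 0.27 (adjusted p = 0.0312 by edgeR).

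Within the Hhip type, only 4 libraries held 20 cells, so a minimum of 5 cells was used, chosen after the data were seen. Acta2 was 3780 CPM on day 6, 5154 on day 7 and 5852 on day 11, between 7715 and 10754 on the 6 other DSS days, days 9 and 12 included, and 14654 in the uninjured library. Actg2 was 807, 1092 and 1438 CPM on days 6, 7 and 9, reached 4609 on day 18, and was 2901 in the uninjured library. Hhip itself was 277 CPM on day 7 and 364 on day 9, and between 828 and 1563 on the other DSS days, but on day 6, at 917, all 25 counts were in 1 of 10 cells. Its uninjured level of 1417 lies inside the DSS range. The slopes were 0.67 ± 0.22 for Acta2 (adjusted p = 0.201 by edgeR), 1.07 for Actg2 (adjusted p = 0.305) and 0.93 for Hhip (adjusted p = 0.483), and none passed.

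Of 1145 genes tested in the Hhip type, 2 (0.175%) were called and DESeq2 called 28. Tppp3, a tubulin-binding protein gene, rose by 1.71 ± 0.28 log2 units per 10 days (adjusted p = 0.0359 by edgeR). Its levels were 367, 153, 160.2, 631, 843 and 997 CPM on frozen days 6, 9, 12, 16, 19 and 23, and 76.3, 132 and 316 on fresh days 7, 11 and 18. Uninjured cells had 750.2 CPM and Il10-/- cells 1301. The early DSS levels and those of days 16 and 18 were thus below the uninjured one, which rests on 17 cells. Only days 19 and 23 were above it, and whether they exceed it beyond counting error was not tested. Btg2, an antiproliferative gene that also answers to cell stress, rose by 1.06 ± 0.18 (adjusted p = 0.0359 by edgeR), from 330.3 and 288 CPM on days 6 and 9 to 1026 and 1057 on days 19 and 23, with 671, 832 and 962 on the fresh days. The count was 0 without day 9 or with no batch term, and 11 without day 7. Tppp3 no longer passed without day 9 (1.57), 18 (1.58), 19 (1.69) or 23 (1.79), nor Btg2 without day 6 (1.06), 9 (0.94), 19 (0.99) or 23 (1.01).

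Ereg and Serpina3n were highest in the Hhip type on day 7. Ereg was 1101 CPM on day 6, 1573 on day 7 and 1429 on day 11, lay between 64.1 and 326 on the other DSS days, and was 50.02 in uninjured and 0 in Il10-/- cells. Day 7 rested on 84 of 121 cells, with 8.19% of the counts in 1 cell, whereas on day 6 it was 5 of 10 cells with 70.0% in 1 cell. Serpina3n was 0 in uninjured cells, 945 CPM on day 7, in 94 of 121 cells, 622 on day 11, 168 on day 18 and 75.5 on day 23. Neither slope passed in the type alone, at -1.48 (adjusted p = 0.343 by edgeR) and -1.45 ± 0.35 (adjusted p = 0.112 by edgeR). Postn ranged only from 1573 to 2563 CPM over the DSS days.

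Il6 and Cxcl1 were higher in the Apold1 type than in the Hhip type in each fresh library. Il6 had a UMI in 50 of 193 Apold1 cells of the fresh libraries against 19 of 302 Hhip cells, and the neutrophil attractant Cxcl1 in 118 against 76. For comparison, the epithelial gene Epcam, which these cells should lack, had a UMI in 53 of the Apold1 cells (27.5%) and 104 of the Hhip cells (34.4%), so the Cxcl1 share in Hhip cells (25.2%) and the Il6 shares (25.9% and 6.29%) were no higher than the Epcam shares. Cxcl1 was 28.8 CPM in the uninjured, 215 in the Il10-/- and 205 to 3777 in the DSS libraries with a median of 1926. Day 7 at 1658 rested on 74 of 120 cells, and day 9 at 3777 on 3 of 9 cells with 50.5% of the counts in 1 of them. Il6 was 57.6 CPM in the uninjured library and 0, 2549, 2432, 674, 286 and 1286 on frozen days 6, 9, 12, 16, 19 and 23. From day 9 to day 23 it was found in 3 to 6 cells in each of these frozen libraries, and 1 cell held 48.9% to 77.8% of its counts. It was 444, 402 and 59.0 on fresh days 7, 11 and 18. Of 985 genes tested over days in this type, 0 were called (0%) by edgeR, 68 had an unadjusted p under 0.05 and DESeq2 called 8. Rgs5 had a slope of 0.31 (adjusted p = 0.863 by edgeR) and was 3963 to 6456 CPM in all DSS libraries, above the 1988 of uninjured and the 2612 of Il10-/- cells. The uninjured and Il10-/- values of this type rest on 7 and 6 cells. Notch3 had a slope of -0.01.

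**Figure D4:**
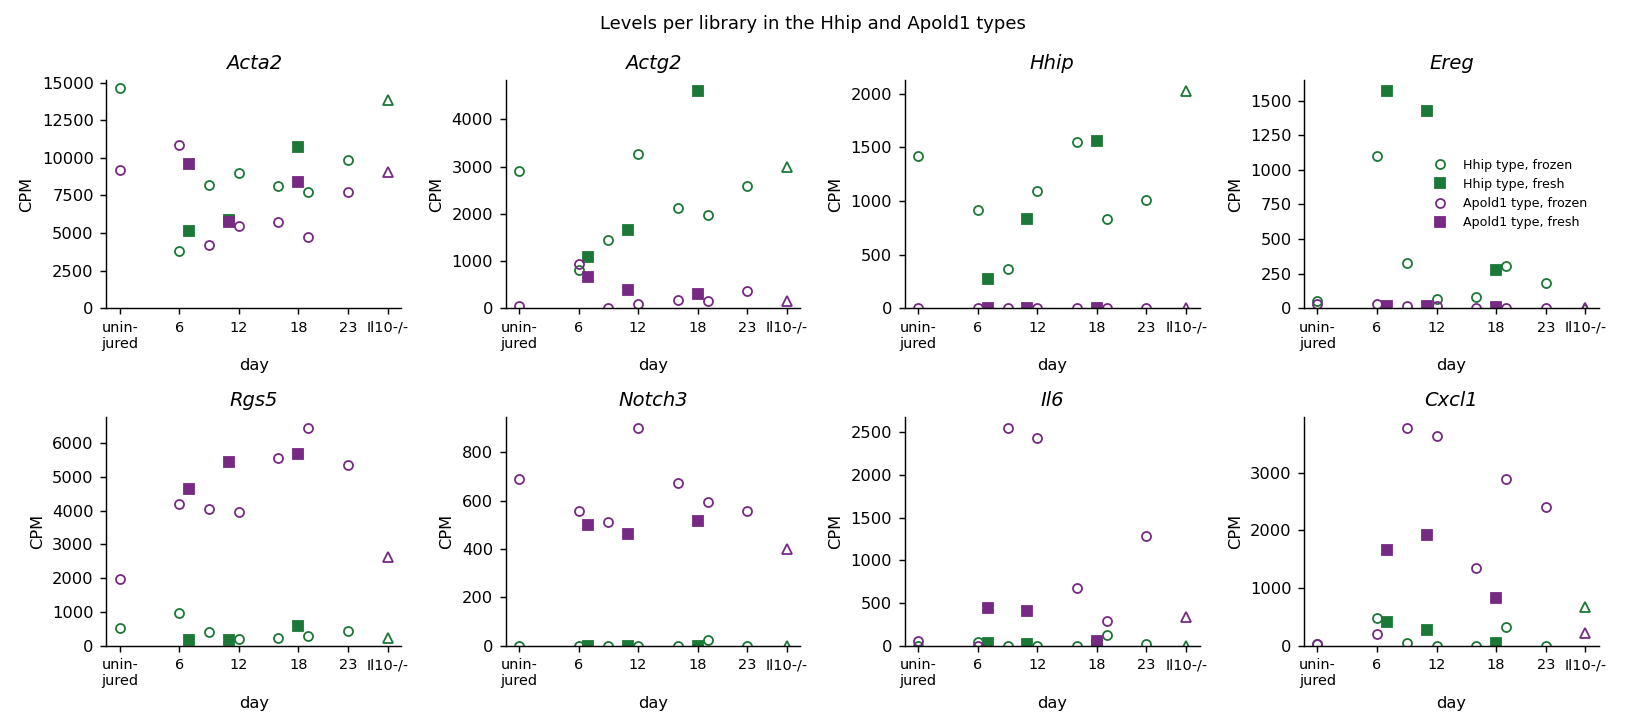
CPM of Acta2, Actg2, Hhip, Ereg, Rgs5, Notch3, Il6 and Cxcl1 (vertical axes) by day (horizontal axis) in the Hhip type (green) and the Apold1 type (purple), with open circles for frozen libraries, filled squares for fresh ones and triangles for Il10-/-. Ereg is highest in the Hhip type on days 6, 7 and 11, and Rgs5 in the Apold1 type is higher in each DSS library than in the uninjured one, which has 7 cells of this type.

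The slopes of the 2 larger types were compared directly over 1603 genes, and edgeR called 0 (0%) at an adjusted p under 0.05, with 109 at an unadjusted p under 0.05. The slope of the Hhip type minus that of the Apold1 type was positive for 20 of 20 contractile genes, with a median of 0.72 against 0.01 over all genes. The list was not tested as a set, and its genes are not independent observations. The Hhip type had 10 cells on day 6, with a median of 1397 UMIs, and the Apold1 type 9 to 16 cells in the frozen DSS libraries. The part of these few cells, and of the Apold1 cells high in Acta2, in the difference was not tested.

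The batch term of the member fit called more genes than day did. Fresh and frozen libraries differed in 319 of 2735 genes (11.7%), with 138 higher in the fresh ones (5.05%) and 181 lower (6.62%). Myh11 was 1.24 ± 0.18 log2 units higher in them (adjusted p = 0.000774 by edgeR), Nrg1 2.54 and Ereg 1.94, and the clock gene Dbp differed by -2.24 and the antigen presentation gene B2m by -1.65. Among those called, 26 ribosomal protein genes were lower and 2 higher. Of the called genes, 9 were over 10-fold higher and 1 over 10-fold lower in the fresh libraries in all cells too. The count was 129 without day 11, 141 without day 18 and 201 without day 23.

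The day slope of members was next set against that of fibroblasts of the same libraries, 7731 cells in all. Of 11384 genes, 24 differed (0.211%), with the slope higher in members for 11 (0.0966%) and lower for 13 (0.114%). Without the Kit cells, which also drops day 6, it was 45 of 11626 (0.387%), and 31 without day 6 alone. On simulated counts this test made more false calls than its threshold aims at, 21 of 102 calls (20.6%). Lmcd1 encodes a LIM domain protein of muscle and is found in both larger types (chr6:112273758-112330425). In members it was 18.3, 41.2, 176, 125, 151 and 91.2 CPM on the frozen days 6, 9, 12, 16, 19 and 23, and in fibroblasts 19.6, 32.7, 11.0, 9.78, 12.8 and 6.09. On fresh days 7, 11 and 18 it was 73.3, 56.1 and 62.0 in members and 29.5, 15.7 and 7.38 in fibroblasts. The difference of slopes was 1.95 ± 0.36 (adjusted p = 0.00661 by edgeR), and it was past the threshold with any 1 of the 9 libraries left out, though not in the 6 frozen libraries alone (2.21). The fibroblast slope was -1.48 ± 0.26 and the member slope 0.40 ± 0.38, so the part that passed in a fit of its own was the fibroblast fall (adjusted p = 0.00885 by edgeR).

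Sema3a, a secreted guidance cue with no counts in the Apold1 type, differed by 1.70 ± 0.34 (adjusted p = 0.00661 by edgeR). It was 27.5 to 131 CPM in members and 2.67 to 20.6 in fibroblasts over the DSS libraries. Pde10a, a phosphodiesterase, differed by 1.37 ± 0.31 (adjusted p = 0.0186 by edgeR) and Apold1 by 2.09 ± 0.41 (adjusted p = 0.0140 by edgeR), and fibroblasts had 0.447 to 8.66 CPM of Apold1. Igfbp2 had the highest difference at 8.19 ± 1.57 (adjusted p = 0.00631 by edgeR), and this rested on 1 library: on day 18, 14 of 99 Hhip cells had it with 48.9% of 135 counts in 1 cell, and the value was 3.10 without day 18. The difference no longer passed for Sema3a without day 7 (1.40) or 18 (1.73), for Pde10a without day 7 (0.98), 18 (1.61) or 23 (1.38), and for Apold1 without day 9 (1.86), 16 (2.09) or 18 (1.29).

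Among those lower in members was Nupr1, a stress-induced chromatin regulator. In fibroblasts it was 182, 214, 245, 388, 407 and 519 CPM on frozen days 6 to 23 and 232, 303 and 374 on the fresh days. In members it was 320.5 on day 6 and 104 to 144 on the other frozen days, and 136, 210.0 and 164 on the fresh days. The slopes differed by -1.11 ± 0.23 (adjusted p = 0.00661 by edgeR), and by -0.65 without day 6, which with day 23 (-1.10) was a library whose omission ended the call. Agt, the precursor of angiotensin, differed by -1.45 ± 0.29 (adjusted p = 0.0129 by edgeR). Its counts were nearly all in the Hhip type and the Kit cells, while the receptor gene Agtr1a was higher in the Apold1 type. Cd248, a receptor of stromal cells, differed by -1.33 ± 0.27 (adjusted p = 0.00661 by edgeR) and Mustn1, a small muscle protein, by -0.79 ± 0.18 (adjusted p = 0.0158 by edgeR). Fibroblast Mustn1 was 129 CPM on day 6 and 384 on day 23, and in members it was 767 to 1841 with no such order. The call ended for Agt without day 6 (-1.19) or 9 (-1.40), for Cd248 without day 18 (-1.13) or 23 (-1.23), and for Mustn1 without day 6 (-0.53), 19 (-0.74) or 23 (-0.82). In a fit of its own, the member slope of Nupr1, Agt, Cd248 and Mustn1 did not pass.

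**Figure D5:**
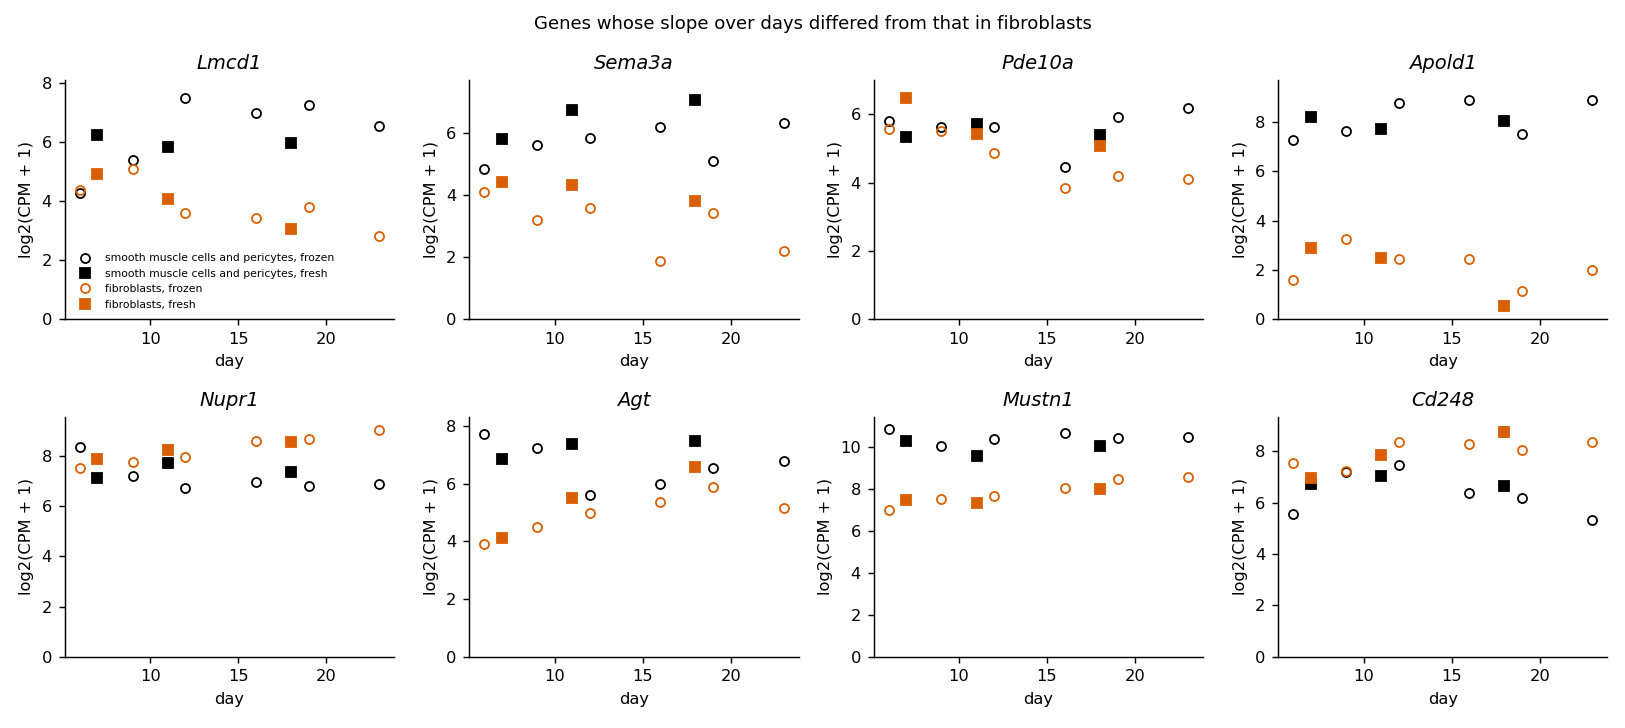
log2(CPM + 1) of Lmcd1, Sema3a, Pde10a, Apold1, Nupr1, Agt, Mustn1 and Cd248 (vertical axes) by day of DSS (horizontal axis) in members (black) and fibroblasts (orange), open symbols for frozen and filled for fresh libraries. Lmcd1 falls with day in fibroblasts and not in members, and Nupr1 and Mustn1 are higher on the late days in fibroblasts alone.

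Against blood endothelial cells the slope differed for 5 of 4613 genes (0.108%). It was higher in members for Cebpb, Rcn3, Col6a2 and Ogn (0.0867%) and lower for Nrp1 (0.0217%), a receptor of semaphorins and vascular growth factor, by -1.40 ± 0.26 (adjusted p = 0.0278 by edgeR). The inflammatory transcription factor gene Cebpb differed by 1.32 ± 0.24 with the same adjusted p. Without day 6 no gene passed, and with frozen libraries alone Ogn turned from 4.47 to -1.42.

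The uninjured library could be placed only against the range of the DSS libraries, since it is 1 library. Of 755 genes with enough counts, 2 lay above that range by at least 2-fold (0.265%) and 4 below it (0.53%). Cxcl1 was furthest below at 28.0 CPM (5.78 to 81.9), from 3 counts, against 229 to 1617 in DSS. The stress gene Phlda1 was 122 against 266 to 856, and Col6a3 84.1 against 249 to 928. The 2 genes above it are markers of other cells: Phgr1, an epithelial gene, at 523 CPM (395 to 680) against 29.4 to 208, and Lum, a fibroblast matrix gene, at 252 (166 to 367) against 32.8 to 110. Fhl1, a LIM domain gene of muscle, was above it by less than 2-fold, at 925 CPM (752 to 1127) against 162 to 474.

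At any distance, 124 genes lay above the range (16.4%) and 78 below it (10.3%). Contractile genes lay above it in 5 of 16 cases, among them Acta2, Lmod1, Myl9 and Myl6, and below it in 0. Columnar epithelial markers lay above it too in 2 of 3 cases (Phgr1 and Lgals4), and their part in these levels was not tested. Against the 6 frozen DSS libraries, which were stored in the same way, 12 of 16 contractile genes lay above, with 160 of all 755 genes. Of 5 vascular genes, 4 lay above (Pln, Rasl11a, Sncg and Lmod1), and of 6 pericyte genes 3 lay below (Rgs5, Ebf1 and Gm13889). Of 15 fibrillar matrix genes, 9 lay below the range, among them Col1a2, Col3a1 and Fn1, and 2 above, Mfap5 and Lum. These levels are sums over all members, whose mix of types differed. The Hhip type was 65.4% of members in the uninjured library, 33.3% to 55.6% in the frozen DSS libraries and 49.2% to 70.7% in the fresh ones. The part of this mix in these levels was not tested. In the Apold1 type Pln was 836 CPM in the uninjured library against 205 to 558 in DSS, and Col4a1 173 against 778 to 2608, with 7 uninjured cells of this type.

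In the Il10-/- library, 8 of 662 genes lay above the DSS range by at least 2-fold (1.21%) and 2 below it (0.302%), and 168 (25.4%) and 33 (4.98%) at any distance. Interferon response genes lay above it in 6 of 7 cases: Iigp1, Igtp, Cxcl10, B2m, H2-K1 and H2-D1. Igtp, an interferon-induced GTPase, was 280 CPM against 6.51 to 82.4. Cxcl10, a chemokine that draws T cells, was 1081 CPM in the 13 Hhip cells against 0 to 197 in DSS. Adamdec1, a protease of the gut stroma, was 1238 CPM (1014 to 1498) against 86.3 to 400.2, and in the Hhip type 2338 against 171 to 978. Fibroblasts express it at 517 CPM over all libraries, and their RNA in these cells was not tested. Rbp4 was 841 CPM against 48.0 to 436, and the metalloprotease inhibitor Timp1 537 against 19.5 to 261.

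Immediate early and heat shock genes lay above the DSS range in the Il10-/- library in 7 of 19 cases, among them Fos, Jun and Hspa1a. Acta2, Myl9 and Myl6 lay above it, 3 of 15 contractile genes, and Cald1 below it. Against the 6 frozen DSS libraries, 10 of 15 contractile genes lay above, with 219 of all 662 genes. The Hhip type was 65.0% of members in the Il10-/- library and 33.3% to 55.6% in the frozen DSS libraries. The part of this mix in these levels was not tested. Rgs5, Col4a1 and Col4a2 lay below the DSS range, and all 3 were below it in the uninjured library too. Igfbp5, a binding protein of insulin-like growth factors, was 234 CPM against 609 to 3553. These mice were about 10 months old and the DSS mice about 2 months, so genotype and age cannot be told apart.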

How the data were processed

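The deposited matrix holds raw UMI counts of each gene in each cell, made by the authors with Cell Ranger 3.0.0 on mm10, per the submitters' processing notes. Types, batch, storage and number of mice came from the authors' deposited cell table. Of 68224 cells, 55603 in 11 libraries with a sample were used, and 12621 cells of 3 other libraries were not analysed here. Of 30406 gene rows, 597 placeholder rows (0.517% of counts) were left out, which left 29809.

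Counts were summed per library and class and given as CPM. Day trends used edgeR 4.0.16 in R 4.3.3 (quasi-likelihood, robust, TMM, filterByExpr) over the 9 DSS libraries with at least 20 cells of the class, with terms for day (per 10 days) and for batch. Slope differences added a class-by-day term with library as a block. Genes under a Benjamini-Hochberg adjusted p of 0.05 were called. Types were fitted at a minimum of 5 cells, added after the data were seen. The steps were tested on simulated data. Each group is 1 pool, so p-values rest on the spread around the fitted day line. Share trends used exact permutation tests. Intervals are exact Clopper-Pearson or Poisson at 95%. Levels under 3 counts were set at 3 counts in fold ratios and in the 2-fold range rule. DESeq2 1.42.0, other filters, frozen libraries alone, log2 of day, leaving out each library, cells under 20% mitochondrial counts, and omission of Kit cells were alternatives.

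Genes named were the markers, the 15 leading genes per type at 50 CPM or more, called list members, up to 12 called genes each way at 20 CPM or more in the class, and the 8 genes furthest above and below the DSS range with at least 20 counts in 1 library. Others were chosen after their values were seen. Members and the lists (24 of states and own markers, 11 of other cells, 529 of 536 genes in the files) were chosen with earlier results of these data known.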

Additional observations from a re-analysis of the deposited data

Results flagged for a closer look

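Each of the 20 values here is the day slope of smooth muscle cells and pericytes minus that of another class in the same libraries, in log2 units per 10 days, with the difference itself past an adjusted p of 0.05 by edgeR. Against fibroblasts the difference was positive for Igfbp2 (8.19), Apold1 (2.09), Lmcd1 (1.95), Sema3a (1.70) and Pde10a (1.37). It was negative for the growth factor gene Fgf1 (-2.18), the basement membrane collagen gene Col4a5 (-1.75), Agt (-1.45), the lipid transfer protein gene Pltp (-1.34), Cd248 (-1.33), Nupr1 (-1.11), Dpysl2 (-1.07), the fibrillin gene Fbn1 (-0.97), Mustn1 (-0.79) and the interferon-induced gene Ifi27l2a (-0.73). Against blood endothelial cells it was positive for Ogn (4.47), Col6a2 (3.93), Rcn3 (2.21) and Cebpb (1.32) and negative for Nrp1 (-1.40). Of these, Lmcd1 against fibroblasts passed with any 1 library left out. Igfbp2 rested on day 18 and was 3.10 without it, and Ogn turned negative in the frozen libraries alone. On simulated counts the test against fibroblasts made 21 false calls of 102 (20.6%).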

How the results depend on the processing

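Counts of genes called over days moved with most settings, and the cause was not tested. In all members the count was 90 with no filter, 5 in frozen libraries alone, 2 with log2 of day, 25 with DESeq2, 17 without the Kit cells and 6 without them at 5 cells, and 0 to 14 when each library was left out. In the Hhip type it was 10 in frozen libraries alone, 0 with no batch term, 28 with DESeq2 and 0 to 11 with a library left out, and in the Apold1 type 4, 8 with DESeq2, and 0 to 5. The slope difference from fibroblasts was called for 14 genes in frozen libraries alone, 45 without the Kit cells (a fit that also drops day 6, against 31 without day 6 alone) and 17 (without day 9) to 55 (without day 11), that from endothelial cells for 1 gene and 0 to 14, and that between the types for 1 gene and 0 to 3. Ogn turned to -1.42 in frozen libraries alone. The batch term called 129 to 344 genes with a library left out. Spearman's rho of the share of members was 0.14 in frozen libraries and -0.33 to 0.14 with a library left out. For the Hhip type it was -0.083 of mesenchyme and -0.12 to 0.36, for the Apold1 type -0.35 and -0.14 to 0.33, and for the Kit cells -0.38 to 0.29. With cells under 20% mitochondrial counts, 3 genes of the uninjured library lay outside the DSS range by 2-fold instead of 6. A minimum of 50 cells could not be fitted, since only the batch C libraries reach it. No paired analysis was possible because each group is 1 library with no replicate, and classes were paired only within a library. Depth limits the frozen libraries most, where the Apold1 type had as few as 9 cells on a DSS day and the Kit cells 2.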
